A study of Mus musculus with 6 samples.

Results

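The 40 genes described here encode lysosomal proteins of the mouse and the transcription factors that act on their genes: 22 acid hydrolases, 3 soluble activators or carriers, 11 proteins of the lysosomal membrane and 4 factors of the MiT family. They were chosen by name, at any level of expression, from the 21047 genes listed for this series, and all 40 were present and tested. The series holds 6 RNA libraries from a mouse line of immortalised macrophages grown out of bone marrow (iBMDM). Of these, 3 carried the genotype label A20KO, an iBMDM line established to lack A20, and 3 were labelled WT, iBMDM without that change. A20, encoded by Tnfaip3, is a ubiquitin-editing protein that restrains NF-kB signalling, and the series asks about its role in macrophages, with the NLRP3 inflammasome named in its title. The labels name no treatment for either genotype and do not say whether the A20KO line is 1 clone. Nor do they tie the libraries to separate cultures, and the spread behind every p-value may therefore be technical.

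Lysosomes are acidic organelles in which hydrolases take apart proteins, glycans, glycolipids and lipids. Most of the soluble enzymes are tagged with mannose 6-phosphate and carried from the Golgi by receptors, while a few need small activator proteins that present the lipid to the enzyme. Membrane proteins shield the limiting membrane, move metabolites and ions across it and pump protons in. TFEB, TFE3, MITF and TFEC are basic helix-loop-helix leucine zipper factors that bind E-box elements, among them the CLEAR element found near many lysosomal genes, and mTORC1 on the lysosome surface holds TFEB and TFE3 in the cytosol by phosphorylation. In macrophages this compartment digests phagocytosed material.

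Each library held between 13308840 and 15130697 reads assigned to genes. Levels are given as normalized reads, the count of a gene divided by a size factor of its library. Tnfaip3 had 194, 196 and 189 normalized reads in the A20KO libraries, against 389, 382 and 437 in the WT libraries (log2 fold change -1.06, SE 0.101, limma adjusted p = 7.1e-14), so the labelled target was lower but still present. The 10 macrophage markers examined had a summed level of 28840.3 to 29131 normalized reads in A20KO and 34413 to 35099.9 in WT, with 3 of the 10 higher and 6 lower in A20KO, and only Mertk among them had no read in a genotype (WT). Of the other marker lists, those of fibroblasts (3 markers analysed), epithelial cells (1) and melanocytes (1) summed to at most 10.5 normalized reads in any library. The T cell list (1 marker analysed, Lck) summed to 45.0 to 46.8 in A20KO and 35.3 to 58.7 in WT. The B cell list (2) summed to 64.4 to 79.8 in A20KO and 138 to 185 in WT, and the neutrophil list (5) to 44.0 to 60.9 in A20KO and 107 to 147 in WT. The osteoclast list (5), which shares the regulator Mitf with macrophages, summed to 9625 to 9815 in A20KO and 17010.4 to 17883 in WT, nearly all of it Ctsk. Of its 5 markers 2 were higher in A20KO (Ocstamp and Dcstamp, log2 fold changes of 1.86 and 0.83) and 2 were lower (Ctsk and Acp5). Acp5 had no read in A20KO and was low in WT too, with 16.5, 4.77 and 11.5 normalized reads. Mitochondrial genes took 2.64% to 2.76% of reads in A20KO and 2.05% to 2.22% in WT. The part that these differences have in the values below was not tested, and in bulk RNA fewer cells of a type and less RNA per cell cannot be told apart.

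Lysosomal genes went both ways in A20KO, by modest amounts. Of the 40 members 16 were higher, 12 were lower and 12 did not pass an adjusted p of 0.05 in a limma fit across all 17376 genes tested. In that fit 39.8% of all genes passed (20.3% of all genes higher and 19.6% lower), and among the 9383 genes with a mean of at least 100 normalized reads, a level that every member reached, 58.2% passed (28.3% higher and 29.9% lower). The members' share was 70%. Only Arsb and Laptm5 passed with a change of at least 2-fold, 2 of 40, where 9.27% of all tested genes and 5.34% of those with a mean of at least 100 did so. In 27 members each A20KO value lay on the same side of each WT value, which is 67.5%, beside 46.9% of all tested genes and 63.6% of those with a mean of at least 100. The median log2 fold change of the members was 0.02, beside 0.01 for all genes tested. Their median size of change was 0.23 on the log2 scale, beside 0.32 for all genes and 0.21 for genes with a mean of at least 100. The authors' deposited table gives an adjusted p-value under 0.05 to 27 of the members, 16 higher and 11 lower, and each of these was called in the same direction here; the remaining call was Mcoln1.

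**Figure D1:**
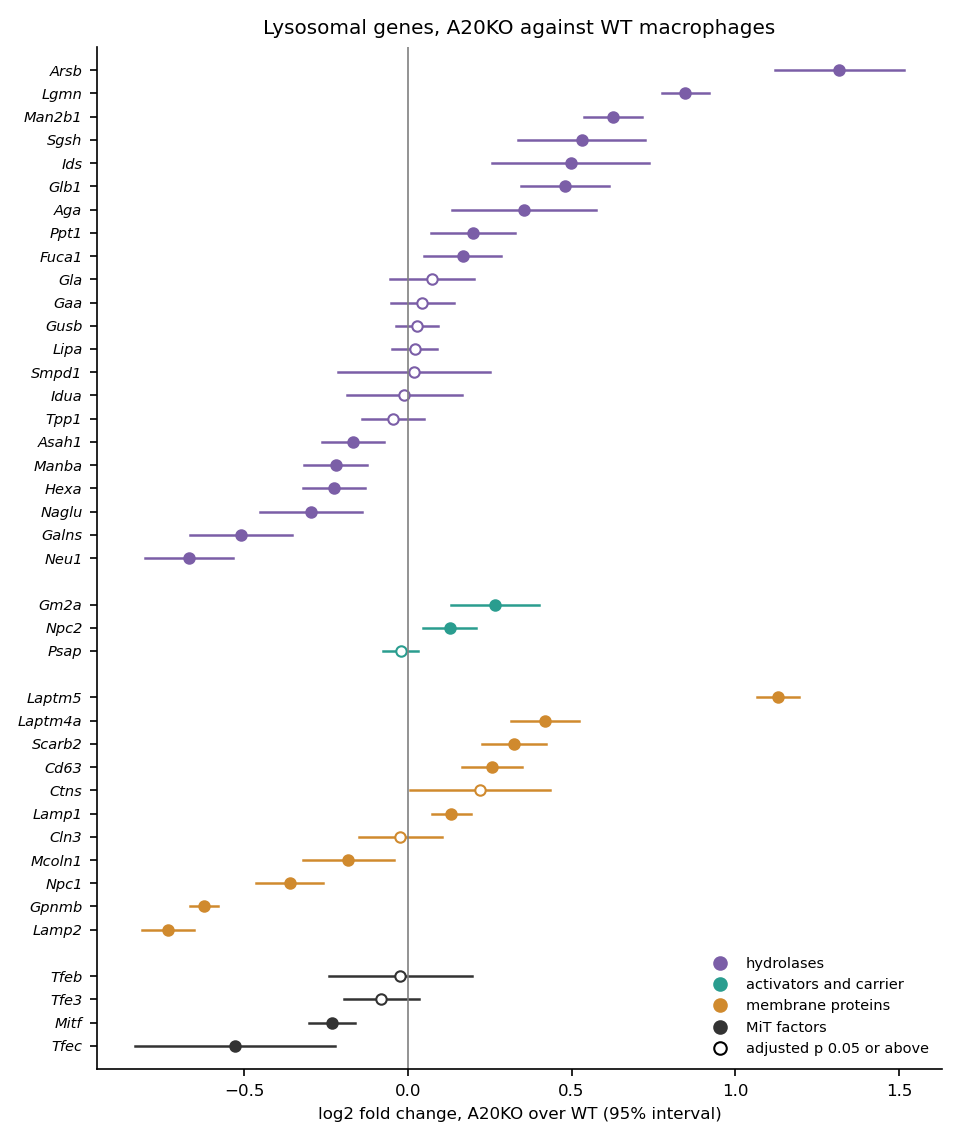
Log2 fold change (A20KO over WT, x axis) of the 40 genes with its 95% interval from limma, grouped by class and sorted within it; filled points passed an adjusted p of 0.05 and open points did not. Hydrolases and membrane proteins lie on both sides of 0, from -0.73 for Lamp2 to 1.32 for Arsb, and the 2 MiT factors that passed lie below 0.

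The MiT factors were lower or did not pass, and Mitf was by far the most abundant of them per unit of length. Mitf, which also drives the osteoclast and melanocyte programmes, had 5126, 5079 and 5221 normalized reads in the A20KO libraries, against 6057, 6037 and 6027 in the WT libraries. Every A20KO value lay below every WT value, and the fall was small (log2 fold change -0.23, SE 0.0348, limma adjusted p = 7.4e-08). Tfec, a family member found mainly in macrophages and osteoclasts, had 85.9, 106 and 103 normalized reads in A20KO and 130.1, 147 and 148 in WT, again without overlap (log2 fold change -0.53, SE 0.152, limma adjusted p = 0.0034).

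Neither of the MiT factors best known for lysosomal control passed the test. Tfeb, the best studied regulator of CLEAR genes, had 244, 242 and 269 normalized reads in A20KO and 231, 298 and 241 in WT. Its log2 fold change was -0.02 with a 95% interval of -0.24 to 0.20 (limma adjusted p = 0.9), and WT replicate 2 alone stood higher than the other libraries. Tfe3, which binds the same elements and is controlled by the same kinase, had 1138, 1222 and 1058 in A20KO and 1187, 1174 and 1250.1 in WT, with overlapping values and an interval of -0.20 to 0.03 (limma adjusted p = 0.28). No MiT factor was called higher by limma, at an adjusted or an unadjusted p under 0.05 (0 of 4), or by edgeR or DESeq2.

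Levels between these factors can be compared only per kilobase of the gene length given in the deposited table. On that scale Mitf stood at 827, 819.8 and 843 normalized reads per kilobase in A20KO and 978, 974 and 973 in WT. Tfe3 followed with 123, 132 and 114 in A20KO and 128, 127 and 135 in WT, then Tfeb with 42.6 to 47.4 in A20KO and 40.7 to 52.6 in WT, and Tfec with 15.3 to 18.9 in A20KO and 23.2 to 26.4 in WT. The ranges of neighbouring factors in this order did not overlap within a genotype. Mitf made up 80.9% to 82.4% of the 4 factors' summed level per kilobase in A20KO and 82.6% to 83.6% in WT, so its place among them was nearly the same in both lines. These are RNA levels, and the location and phosphorylation of the proteins were not measured.

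**Figure D2:**
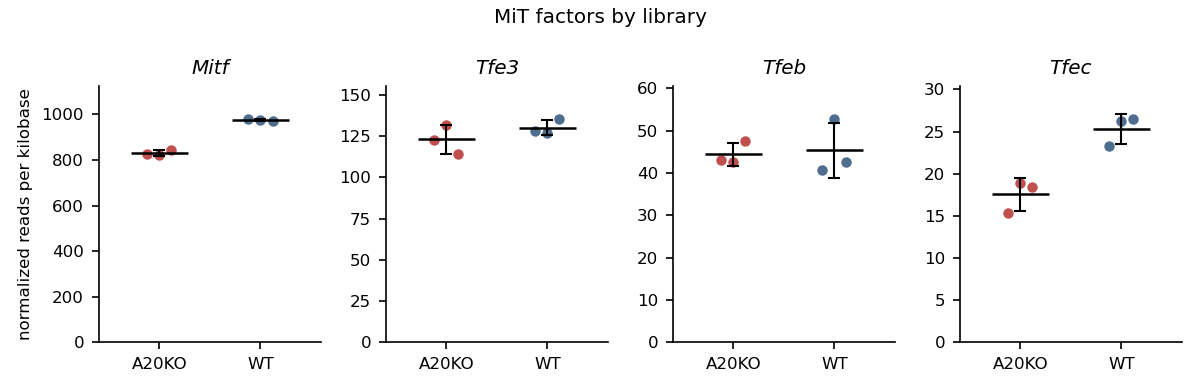
Normalized reads per kilobase of gene length (y axes, each from 0 with its own scale) of the 4 MiT factors in the A20KO libraries (left) and the WT libraries (right); points are libraries, long bars the mean and whiskers 1 SD (n = 3). Mitf and Tfec are lower in all 3 A20KO libraries than in any WT library, and the values of Tfe3 and Tfeb overlap.

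MiT factors bind the E-box CACGTG, and the CLEAR element is an extended form of it, a palindrome of 10 letters. Promoter sequences from RefSeq (GRCm38, the build mm10) were matched by symbol for 36 of the 40 members, and the 250 bases before each annotated start were searched on both strands. Cln3, Gaa, Gla, Glb1, Lamp1, Lgmn, Mcoln1, Naglu and Sgsh held the 6-letter E-box, 9 of 36 genes or 25%, where 6.86% of all 26994 genes with a promoter in that table held it. The 8-letter core TCACGTGA, which contains the E-box, stood in Cln3, Gla and Mcoln1, 3 of 36, against 0.908% of all genes, and the full palindrome, which adds a G before that core and a C after it, in Cln3 alone, against 0.27% of all genes. The related M-box TCATGTGA stood only in Gla among the 36, against 0.985% of all genes. A match describes these letters and does not show that a factor binds there.

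Lamp1 held 4 E-boxes in a short stretch, which is printed first because it is the densest cluster among the members. It covers the 75 bases just before the start on the plus strand, chr8:13159086-13159160. The other lines give the 30 bases around a match in each of the other genes, read 5′ to 3′ on the gene's strand, with capitals marking the E-box or its extended form. For Cln3 and Lgmn the match lies in 1 of 2 annotated promoter windows, and all 250 bases of the Cln3 window lie in annotated exons. Exons also cover 197 bases of the window for Gla, 105 for Sgsh, 82 for Naglu, 76 for Gaa, 62 for Mcoln1 and 2 for Glb1. The printed E-boxes of Cln3, Lgmn, Mcoln1 and Naglu lie within the deposited gene spans, and that of Sgsh crosses the edge of its span.
Lamp1: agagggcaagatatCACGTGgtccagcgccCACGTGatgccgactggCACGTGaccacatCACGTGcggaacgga
Cln3 (chr7:126583340-126583369, minus strand): cacgggtactGTCACGTGACccccaacctg
Gla (chrX:134601182-134601211, minus strand): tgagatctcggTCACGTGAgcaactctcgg
Mcoln1 (chr8:3500462-3500491, plus strand): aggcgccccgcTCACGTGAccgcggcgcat
Lgmn (chr12:102439124-102439153, minus strand): tggaatgtctgtCACGTGgtccattttata
Glb1 (chr9:114401018-114401047, plus strand): ctgcttctgagtCACGTGgcctacagaggc
Gaa (chr11:119267811-119267840, plus strand): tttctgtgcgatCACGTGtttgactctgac
Naglu (chr11:101070009-101070038, plus strand): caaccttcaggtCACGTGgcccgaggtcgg
Sgsh (chr11:119355522-119355551, minus strand): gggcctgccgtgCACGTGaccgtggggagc

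The members with an E-box in this window were found in every outcome. Of the 9, 4 were higher in A20KO (Lamp1, Lgmn, Glb1 and Sgsh), 2 were lower (Mcoln1 and Naglu) and 3 did not pass (Cln3, Gla and Gaa), with a median log2 fold change of 0.07. Of the 27 members without one, 11 were higher, 7 were lower and 9 did not pass, with a median of 0.02. The genes with the extended element, Cln3, Gla and Mcoln1, had log2 fold changes of -0.02, 0.07 and -0.18. The median size of change over all 40 members was 0.23. A link between these elements and the changes was not tested.

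Acid hydrolases were the largest class, and 9 of the 22 were higher in A20KO, 6 were lower and 7 did not pass. The median log2 fold change of the class was 0.04. The sulfatases, which remove sulfate groups from glycosaminoglycans and related glycans, all passed: 3 of 4 rose and 1 fell. Arsb, arylsulfatase B, which acts on dermatan and chondroitin sulfate, had 506, 539.9 and 518 normalized reads in the A20KO libraries, against 176, 229.7 and 224 in the WT libraries. The groups were far apart, with the lowest A20KO library above the highest WT library by more than the spread within either group (log2 fold change 1.32, SE 0.098, limma adjusted p = 2.4e-18). Arsb shares 39.6% of its sequence, as 31-base words, with 2 annotated antisense genes that overlap 2411 bases of its exons. Of these Gm47210 had at most 1.95 normalized reads in any library, and Gm26527 was not analysed here; without a stated strand setting their reads cannot be told apart from those of Arsb.

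Ids, iduronate 2-sulfatase, an enzyme of heparan and dermatan sulfate breakdown, rose with 221, 263 and 226 normalized reads in A20KO and 182, 161 and 158 in WT (log2 fold change 0.50, SE 0.12, limma adjusted p = 4.6e-04). Sgsh, the heparan N-sulfatase, had 383, 381 and 358 in A20KO and 282, 248 and 248 in WT (log2 fold change 0.53, SE 0.0967, limma adjusted p = 5.3e-06). Both rises were free of overlap between the genotypes. Card14, an antisense neighbour that shares 955 exonic bases with Sgsh, had 94.6, 91.0 and 99.8 normalized reads in A20KO and 5.82, 4.77 and 9.44 in WT, so the count of Sgsh is uncertain where reads of the overlap were assigned without strand. Galns, which acts on keratan and chondroitin 6-sulfate, went the other way, with 494, 436 and 496 in A20KO and 642, 629 and 763 in WT (log2 fold change -0.51, SE 0.0777, limma adjusted p = 1.2e-07).

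Of the 12 glycosidases and related glycan-degrading enzymes, 4 rose, 4 fell and 4 did not pass. Man2b1, the lysosomal alpha-mannosidase, rose most, with 2728, 2776 and 2832 normalized reads in A20KO and 1853, 1753 and 1794 in WT (log2 fold change 0.63, SE 0.0449, limma adjusted p = 4.7e-19). Glb1, the beta-galactosidase that starts GM1 ganglioside breakdown, had 821, 877 and 917 in A20KO and 580.4, 634 and 662 in WT (log2 fold change 0.48, SE 0.0676). In both genes each A20KO library exceeded each WT library.

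The remaining rises among these enzymes were small. Aga, which splits the bond between asparagine and a glycan, had 281, 281 and 267 normalized reads in A20KO and 237, 189 and 224 in WT (log2 fold change 0.35, limma adjusted p = 0.0063). The call of Aga ended without WT replicate 2 (adjusted p = 0.081) and without the variance trend in limma (0.059). Fuca1, the alpha-fucosidase, had 1059.5, 1128 and 1043 in A20KO and 917, 976 and 982 in WT (log2 fold change 0.17, limma adjusted p = 0.017). Its call ended without A20KO replicate 2 (0.12), without WT replicate 1 (0.087) and without the variance trend (0.11).

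Neu1, the lysosomal sialidase, fell furthest of the hydrolases. It had 621, 602 and 557 normalized reads in A20KO and 957, 889 and 983 in WT (log2 fold change -0.67, SE 0.0667, limma adjusted p = 3.1e-13), with a wide gap between the groups. Hexa, the alpha subunit of beta-hexosaminidase, had 1753, 1673 and 1767 in A20KO and 2041, 1979 and 2056 in WT (log2 fold change -0.23, limma adjusted p = 5.8e-05). Manba, the beta-mannosidase, had 1687, 1602 and 1707 in A20KO and 1941, 1926 and 1951 in WT, a change of nearly the same size as that of Hexa (-0.22, limma adjusted p = 1.1e-04). Naglu, which removes N-acetylglucosamine from heparan sulfate, had 510.3, 489 and 445 in A20KO and 554, 584 and 636 in WT (-0.30, limma adjusted p = 0.0013, and 0.062 without the variance trend). None of these 4 genes overlapped between genotypes.

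The 4 glycosidases that did not pass had intervals that included 0, narrowest for Gusb and widest for Idua, so small changes are not excluded. Gusb, beta-glucuronidase, had 7652, 7812 and 7748 normalized reads in A20KO and 7488, 7586 and 7703 in WT, and the 95% interval of its log2 fold change ran from -0.04 to 0.09. Gaa, the acid alpha-glucosidase that degrades glycogen, had an interval of -0.05 to 0.14. Gla, the alpha-galactosidase of globoside breakdown, had an interval of -0.05 to 0.20, and that of Idua, the alpha-iduronidase, ran from -0.19 to 0.17. In each of these 4 the genotypes overlapped.

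Of the 2 proteases 1 rose and 1 did not pass, and of the 4 lipid hydrolases 1 rose, 1 fell and 2 did not pass. Lgmn, legumain, an asparaginyl endopeptidase that processes cathepsins and antigens, had 7655, 7273 and 7274 normalized reads in A20KO and 4088, 4232 and 4019.9 in WT. The change of 0.85 on the log2 scale (SE 0.0358, limma adjusted p = 3.7e-30) was second among the hydrolases to that of Arsb, and the lowest A20KO library lay far above the highest WT library. Tpp1, the other protease, a tripeptidyl peptidase, had 1932, 1989 and 1905 in A20KO and 2001, 1919.7 and 2096 in WT, with an interval of -0.14 to 0.05.

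Of the lipid hydrolases, Asah1, the acid ceramidase, had 1752, 1791 and 1803 normalized reads in A20KO and 2075, 1993 and 1937 in WT (log2 fold change -0.17, limma adjusted p = 0.0028, and 0.083 without the variance trend). Ppt1, which removes palmitate from proteins, had 879, 829 and 810.0 in A20KO and 734, 749 and 710.0 in WT (log2 fold change 0.20, limma adjusted p = 0.0095). The groups of Ppt1 did not overlap, yet its call ended without A20KO replicate 1 (0.068) and without the variance trend (0.067), and 129 bases of its exons overlap the opposite-strand gene Cap1, which averaged 9217 ± 80.6 normalized reads in A20KO and 7312 ± 95.3 in WT (SD, n = 3 each). Lipa, the acid lipase of cholesteryl esters and triglycerides, had 7217, 7149.9 and 7492 in A20KO and 7555, 7153 and 6859 in WT, with an interval of -0.05 to 0.09. Smpd1, the acid sphingomyelinase, had 194, 235 and 211 in A20KO and 205, 203 and 222 in WT, and at that level its interval of -0.21 to 0.25 was wider.

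Among the soluble activators and carriers 2 of 3 rose slightly and the most abundant did not pass. Psap, prosaposin, the precursor of the saposins that help several sphingolipid hydrolases, had 18238, 18632 and 17951 normalized reads in A20KO and 18314, 18685 and 18633 in WT. Its interval of -0.07 to 0.03 was the narrowest in this class, and the genotypes overlapped. Gm2a, the GM2 activator that works with beta-hexosaminidase, had 841, 766 and 861 in A20KO and 718, 697 and 639 in WT (log2 fold change 0.26, limma adjusted p = 8.7e-04, and 0.067 without the variance trend). Npc2, the soluble cholesterol carrier, had 3241, 3333 and 3233 in A20KO and 3000.1, 3078 and 2903 in WT (log2 fold change 0.13, limma adjusted p = 0.0091). The call of Npc2 ended without A20KO replicate 2 (0.062) and without the variance trend (0.15).

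Membrane proteins held the strongest fall and, after Arsb, the strongest rise of all members: 5 of 11 were higher, 4 were lower and 2 did not pass. The class had a median log2 fold change of 0.13. Laptm5, a lysosomal transmembrane protein of blood cells that lowers surface receptor levels, had 11216, 11417 and 11157 normalized reads in A20KO, against 5173, 5147 and 5111 in WT. Libraries of 1 genotype differed by little beside the gap between genotypes (log2 fold change 1.13, SE 0.0323, limma adjusted p = 4.7e-39). Its relative Laptm4a, a small transmembrane protein of late endosomes and lysosomes, rose less, with 1579.5, 1656 and 1651 in A20KO and 1197, 1212 and 1246 in WT (log2 fold change 0.42, SE 0.0516, limma adjusted p = 3.5e-10).

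Gpnmb, a glycoprotein of macrophages, osteoclasts and melanocytes that is a known MiT target, fell clearly. It had 38529, 39306 and 37842 normalized reads in A20KO and 58877, 59627 and 59607 in WT (log2 fold change -0.62, SE 0.0217, limma adjusted p = 1.5e-34). Its fall alone removed more reads than all the rises of the other membrane proteins added, as the class sums below show. Beside it, the osteoclast markers Ctsk and Acp5 were lower and Ocstamp and Dcstamp higher in A20KO, as given above, and the analysed melanocyte marker Pmel stayed at or below 10.5 normalized reads in every library.

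The paired glycoproteins Lamp1 and Lamp2, which coat the inner face of the lysosomal membrane, moved in opposite directions. Lamp2, which also takes part in chaperone-mediated autophagy, had 2626, 2573 and 2717 normalized reads in A20KO and 4465, 4354 and 4344 in WT (log2 fold change -0.73, SE 0.0399, limma adjusted p = 1.3e-24), the strongest fall of the 40 members. Lamp1 had 11537, 11709 and 11459.6 in A20KO and 10639, 10476 and 10545 in WT (log2 fold change 0.13, limma adjusted p = 1.7e-04). The rise of Lamp1 was small and its groups did not overlap, but its call ended without the variance trend (adjusted p = 0.11).

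**Figure D3:**
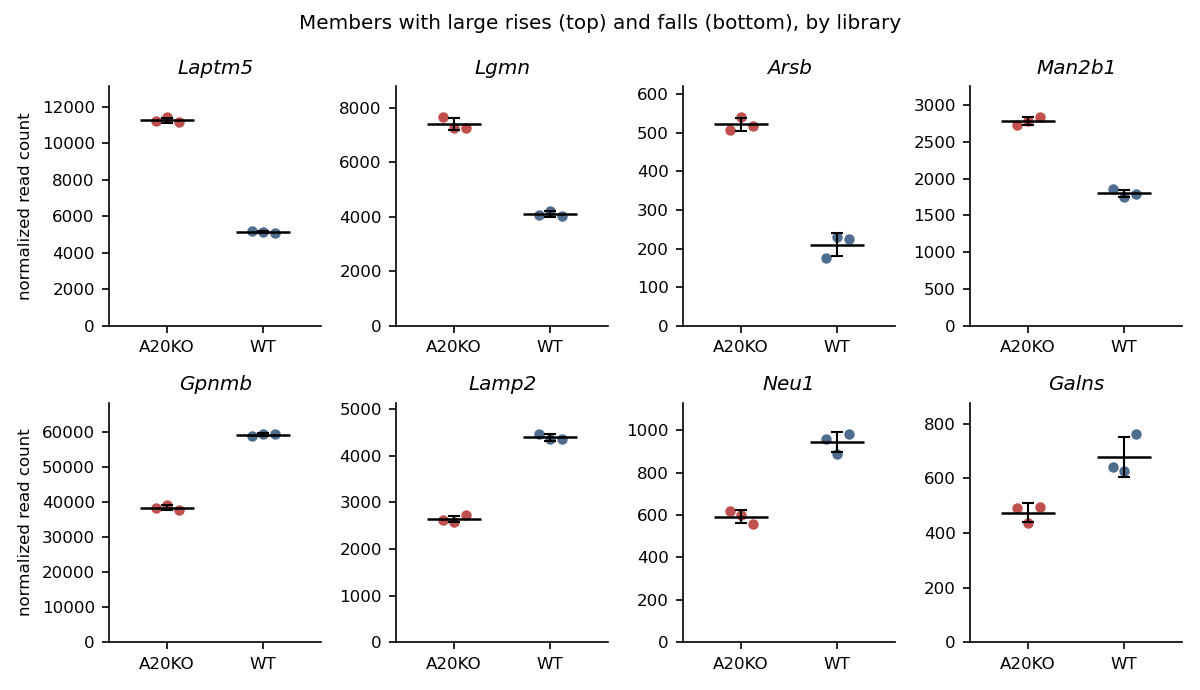
Normalized read counts (y axes, each from 0) of 8 members with large changes, chosen after their values were seen, in the A20KO libraries (left) and the WT libraries (right); points are libraries, long bars the mean and whiskers 1 SD (n = 3). In the upper panels (Laptm5, Lgmn, Arsb, Man2b1) every A20KO library lies above every WT library, and in the lower panels (Gpnmb, Lamp2, Neu1, Galns) every A20KO library lies below.

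Both directions were also seen among the cholesterol, ion and trafficking proteins of the membrane. Npc1, the cholesterol exporter that receives its cargo from Npc2, had 1304, 1399.7 and 1368 normalized reads in A20KO and 1741, 1677 and 1813 in WT (log2 fold change -0.36, SE 0.0509, limma adjusted p = 1.6e-08). It overlaps 601 bases of exons on the opposite strand, mainly of Rmc1, which averaged 566 ± 26.7 in A20KO and 709 ± 38.4 in WT (SD, n = 3 each), so reads of the overlap cannot be told apart. Scarb2, the receptor that delivers beta-glucocerebrosidase to lysosomes, had 1744, 1824 and 1828 in A20KO and 1463, 1434 and 1414 in WT (log2 fold change 0.32, SE 0.0494, limma adjusted p = 1.1e-07). Cd63, a tetraspanin of late endosomes and lysosomes, had 2360.0, 2376 and 2257 in A20KO and 1907, 1959.7 and 1985 in WT (log2 fold change 0.26, SE 0.0455), and 15.9% of its 31-base words also occur in other genes, mainly its pseudogene Cd63-ps, which averaged 239 ± 39.5 in A20KO and 172 ± 26.9 in WT (SD, n = 3 each). In Npc1, Scarb2 and Cd63 the genotypes did not overlap.

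The 3 remaining membrane proteins had a call that many alternatives ended, or none. Mcoln1, the calcium channel TRPML1 that acts upstream of TFEB through calcineurin, had 614, 677 and 616 normalized reads in A20KO and 676, 724 and 761 in WT, where A20KO replicate 2 met the lowest WT library. Its log2 fold change of -0.18 (limma adjusted p = 0.031) lost its call under 7 of 18 alternatives: without A20KO replicate 1 (0.11) or 3 (0.11), without WT replicate 2 (0.081) or 3 (0.15), with DESeq2 (0.091), with quantile normalization (0.06) and without the variance trend (0.15). Ctns, the cystine exporter, had 261, 277 and 286 in A20KO and 265, 220.2 and 224 in WT (0.22, limma adjusted p = 0.1), and passed without WT replicate 1 (0.034). Cln3, a membrane protein lost in juvenile Batten disease, had 1043, 960.5 and 852 in A20KO and 957, 944 and 991 in WT, with overlapping values and an interval of -0.15 to 0.10.

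Several members whose products work as partners changed in opposite directions, so that their ratio within a library, which no scaling between libraries can alter, differed between the genotypes. These pairs were chosen after the values were seen, and the ratios are given as a description. The ratio of Lamp1 to Lamp2 reads was 4.39, 4.55 and 4.22 in A20KO and 2.38, 2.41 and 2.43 in WT. The ratio of Glb1 to Neu1, enzymes that share a lysosomal complex with cathepsin A, was 1.32, 1.46 and 1.65 in A20KO and 0.606, 0.713 and 0.673 in WT, and per kilobase Glb1 was the higher of the pair in A20KO (289.9 against 158.8 normalized reads per kilobase) and Neu1 in WT (252.6 against 207.9). The same turn occurred for the mannosidases, where Man2b1 over Manba was 1.62, 1.73 and 1.66 in A20KO and 0.954, 0.910 and 0.920 in WT, with Man2b1 at 346 and Manba at 239 normalized reads per kilobase in A20KO, and at 224 and 278 in WT.

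Cholesterol and ganglioside handling showed smaller shifts of the same kind. Npc2 over Npc1 was 2.48, 2.38 and 2.36 in A20KO and 1.72, 1.84 and 1.6 in WT. Gm2a over Hexa was 0.480, 0.458 and 0.488 in A20KO and 0.352, 0.352 and 0.311 in WT. None of the 5 ratios overlapped between genotypes, which follows from the choice of pairs. Each sets a gene that rose without overlap over a gene that fell without overlap.

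**Figure D4:**
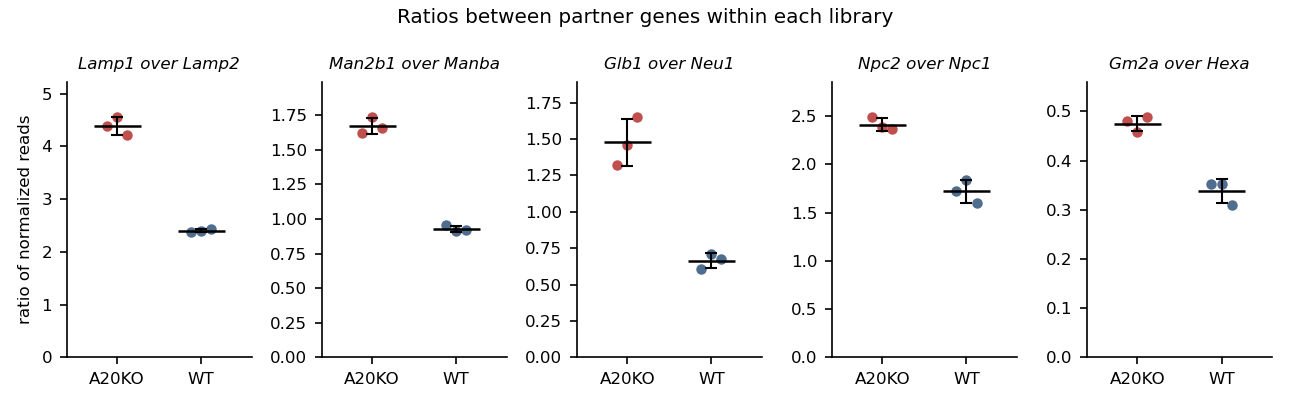
Ratio of normalized reads (y axes, each from 0) between partner genes within each library, A20KO left and WT right; points are libraries, long bars the mean and whiskers 1 SD (n = 3). The Lamp1 over Lamp2 ratio averages 4.39 ± 0.166 in A20KO and 2.41 ± 0.0224 in WT, and the other 4 ratios also lie higher in all 3 A20KO libraries. The pairs were chosen after the values were seen.

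As sums of reads, the classes moved by different amounts. The 22 hydrolases took 0.295%, 0.295% and 0.298% of all reads in the A20KO libraries and 0.262%, 0.257% and 0.260% in the WT libraries, a ratio of normalized sums of 1.11. Most of that difference was Lgmn: in a sum chosen after the values were seen, the other 21 took 0.240%, 0.243% and 0.246% in A20KO and 0.233%, 0.228% and 0.233% in WT (ratio 1.03). The 11 membrane proteins took 0.517%, 0.527% and 0.515% in A20KO and 0.608%, 0.609% and 0.612% in WT (ratio 0.832). That direction rested on 1 gene: without Gpnmb the other 10 took 0.243%, 0.248% and 0.245% in A20KO and 0.198%, 0.195% and 0.198% in WT (ratio 1.21), and without Laptm5 as well the ratio was 0.999. The 3 activators and carriers took 0.158% to 0.162% in A20KO and 0.153% to 0.156% in WT. Their normalized sums overlapped, at 22045 to 22731 in A20KO and 22032 to 22460 in WT (ratio 1.01). The percentages rest on all reads of a library, and the normalized sums on its size factor. The 4 MiT factors took 0.0468% to 0.0476% in A20KO and 0.0529% to 0.0533% in WT (ratio 0.868). Summed reads favour long and abundant genes, and no test was made of a sum or between classes.

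**Figure D5:**
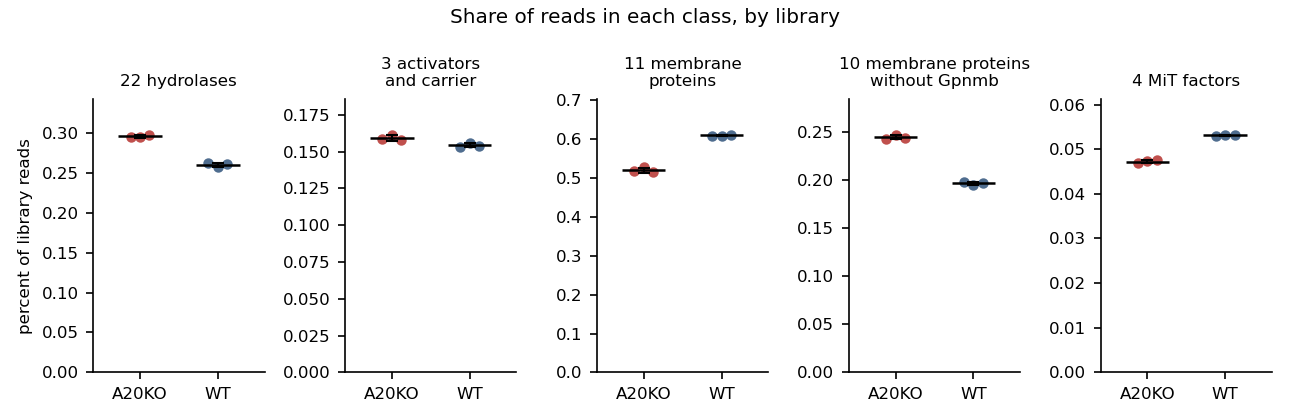
Percent of each library's reads (y axes, each from 0) in the 4 classes, and in the membrane proteins without Gpnmb, for the A20KO libraries (left) and the WT libraries (right); points are libraries, long bars the mean and whiskers 1 SD (n = 3). The hydrolases are higher and the MiT factors lower in all 3 A20KO libraries, and the membrane proteins turn from lower to higher in A20KO once Gpnmb is left out.

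The order of the members by level per kilobase differed in part between the genotypes. Neu1 ranked 28 of 40 in A20KO and 20 in WT, Glb1 18 in A20KO and 25 in WT, and Lamp2 20 in A20KO and 14 in WT. In A20KO Psap led with an average of 6659.5 normalized reads per kilobase, followed by Gpnmb (5919), Lamp1 (4325), Lgmn (3186), Laptm5 (2973) and Lipa (2454). In WT Gpnmb led with 9114, followed by Psap (6758), Lamp1 (3945), Lipa (2421), Lgmn (1771) and Gusb (1669). Psap and Gpnmb thus changed places on this scale, which rests on their deposited lengths (2744 and 6514 bases). In normalized reads Gpnmb stood above Psap in both genotypes, with averages of 38559 against 18274 in A20KO and 59371 against 18544 in WT. The lowest members were Tfec, Tfeb and Ids in A20KO and Tfec, Ids and Arsb in WT. The gene length used for Lipa in the deposited table is shorter than the joined exons of GENCODE M21 (2969 against 6780 bases), so its place in this order is uncertain.

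Genes of the same compartment outside the 40 also went both ways, as did genes at large. Of all genes tested 39.8% passed, and of those with a mean of at least 100, 58.2% (28.3% higher and 29.9% lower). Of 19 proton pump (V-ATPase) subunits 6 rose, 6 fell and 7 did not pass, so 63.2% passed, and their median on the log2 scale was 0.03. Atp6v0d2, the osteoclast and macrophage form of the d subunit, had 175, 193 and 181 normalized reads in A20KO and 13.6, 14.3 and 16.8 in WT (log2 fold change 3.54, SE 0.219, limma adjusted p = 6.7e-22). Its widely expressed counterpart Atp6v0d1 had 1198, 1115 and 1136 in A20KO and 1729.6, 1603 and 1680.1 in WT (-0.54, SE 0.0526). Atp6v1a, the catalytic subunit, fell by 0.43, and the accessory subunit Atp6ap1 rose by 0.25 on the log2 scale.

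Of 20 other lysosomal hydrolases and soluble proteins 7 rose, 6 fell and 7 did not pass (65% passed), with a median of 0.03. Pla2g15, a lysosomal phospholipase, rose by 0.49 on the log2 scale (limma adjusted p = 2.7e-07). Naaa, which degrades fatty acid ethanolamides, had 361, 375 and 415 normalized reads in A20KO and 906, 961 and 891 in WT, without overlap (-1.26, SE 0.0734, limma adjusted p = 3.2e-23). Of 20 other lysosomal membrane proteins 6 rose, 9 fell and 5 did not pass (75% passed), with a median of -0.14. Slc11a1, the phagosomal metal exporter NRAMP1, had 2448, 2442 and 2368 in A20KO and 5908, 5917 and 6148 in WT (-1.31, SE 0.0387, limma adjusted p = 2.9e-38), and Slc15a3, a peptide and histidine transporter, fell by 1.69. Abca2, a lipid transporter, rose by 0.95 and Laptm4b, a close relative of Laptm4a, by 1.49. Laptm4b's locus is on chromosome 15, which holds none of the 40 members; of the 662 genes tested there, A20KO libraries were higher for 355 and lower for 47.

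Genes of enzyme delivery and of the upstream control of MiT factors were described through further lists, at the RNA level only. Of 10 genes of mannose 6-phosphate sorting and enzyme maturation 2 rose, 5 fell and 3 did not pass. Thus 70% passed, beside 58.2% of genes with a mean of at least 100, and the median of the list on the log2 scale was -0.05. Both falling genes with the smallest adjusted p encode sorting receptors: Sort1, sortilin, had 1391, 1417 and 1431 normalized reads in A20KO and 3607, 3584 and 3568 in WT (-1.34, SE 0.0443, limma adjusted p = 9.0e-36), and Igf2r, the large mannose 6-phosphate receptor, had 6397, 6756 and 6775 in A20KO and 9653, 9576 and 10291 in WT (-0.57, SE 0.0336). Gnptab, the phosphotransferase that makes the tag, rose by 0.44, and Sumf1, which activates all sulfatases, rose by 0.16 (limma adjusted p = 0.033). Of 19 tested genes of Rag-mTORC1 and calcineurin control, from a list of 20, 5 rose, 6 fell and 8 did not pass (57.9% passed), with a median of -0.02. Flcn, folliculin, which promotes the mTORC1-dependent retention of TFEB, rose by 0.51, and the calcineurin catalytic subunits split, as Ppp3ca rose by 0.54 and Ppp3cb fell by 0.47. Lamtor2, a Ragulator subunit, fell by 0.39.

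Smaller exon overlaps with neighbouring genes, whose reads cannot be told apart without a stated strand setting, touch Lamp1 (249 bases), Hexa (255), Idua (265) and Cln3 (442). Glb1 shares 165 exonic bases with Tmppe on its own strand, where no strand setting separates the reads. The members are spread over 15 chromosomes, with 6 on chromosome 8 (Aga, Asah1, Galns, Lamp1, Man2b1 and Mcoln1) and 5 on chromosome 11 (Ctns, Gaa, Gm2a, Naglu and Sgsh). The genes on chromosome 8 did not move as a block: Aga, Lamp1 and Man2b1 were higher in A20KO, and Asah1, Galns and Mcoln1 were lower. In mm10 Lamp2 lies on chromosome X from 38401357 to 38456454, Gpnmb on chromosome 6 from 49036546 to 49070929, Laptm5 on chromosome 4 from 130913125 to 130936141, Lgmn on chromosome 12 from 102394084 to 102439813 and Arsb on chromosome 13 from 93771630 to 93943016. Mitf, Tfec and Gpnmb share chromosome 6 but are far apart on it, with Mitf starting at 97807052 and Tfec at 16833373.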

How the data were processed

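Per the labels' protocols, RNA came from a Trizol extraction and went into SMARTer libraries; the build is mm10, per the submitters' processing notes. No aligner, counter, strand setting or annotation release is named in these sources. The authors deposited 1 table with a normalized signal per gene and library, per the file headers. Dividing by the value of 1 read gave whole numbers for 100% of values in each library (tolerance 0.001 reads), so the deposited signal equals counted reads over a size factor of the library, and the reads could be recovered. Further deposited columns hold the authors' mean per genotype, log2 fold change, raw and adjusted p-value, and gene length in bases.

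A pseudocount of 1 was added before taking log2, and 17376 genes averaging 1 or more were fitted by genotype in limma 3.58.1 (R 4.3.3, variance trend, robust), with Benjamini-Hochberg adjustment over all of them, at 0.05. Because of the pseudocount, changes of low genes come out too small. Intervals are 95% intervals from that fit. Levels between genes were compared per kilobase of the deposited length, which equals the joined exons of GENCODE M21 for 38 of 40 members. On the recovered reads edgeR 4.0.16 called 3315 genes higher and 3371 lower of 12656, and DESeq2 1.42.0 and limma-voom were run beside it. The procedure was tested on simulated data. Replicates differed by more than sampling noise (chi-square of 2.67 to 3.6 per degree of freedom). This does not show that they came from separate cultures, since library preparation can also add spread. Each library was counted once. With 3 libraries per genotype an exact 2-sided permutation test of a single value cannot go below 0.1, so none is given.

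The members and lists were chosen with earlier results of these data known. All 40 members are named. From the related lists, up to 2 genes per direction with the smallest adjusted p are named, except some that are not reported here; genes that overlap a member are named beside it. The cut at a mean of 100 reads was chosen after seeing the data.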

Additional observations from a re-analysis of the deposited data

How the results depend on the processing

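No member changed direction with a call under any of the 18 alternatives run. Of the 28 called members 19 kept their call under all of them, and 11 of the 12 others stayed without one. The pseudocounts of 0.1 and 10, no filter or a mean of at least 5, TMM rescaling, edgeR with TMM or RLE and limma-voom left the counts of members called at 16 higher and 12 lower. DESeq2 and quantile normalization gave 16 higher and 11 lower. The largest loss came from limma without the variance trend, with 10 members higher, 9 lower and none of the activators and carriers called (0 higher); the cause was not tested. Leaving out 1 library gave 14 to 16 members higher and 11 to 12 lower, and 1 to 2 activators and carriers higher, with 1 called without A20KO replicate 2. Over all genes, the calls ranged from 2440 to 3620 higher and from 2335 to 3425 lower. The median log2 fold change of all genes stayed between -0.00429 and 0.0157 under every scaling tried.

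Same-numbered libraries of the genotypes did not deviate together (correlations of -0.04, -0.02 and -0.09 over 9383 genes, against up to 0.11 for libraries with different numbers). These values show no pairing by number, but they cannot settle whether same-numbered libraries were prepared together, which the labels do not say. With the replicate number as a block, 16 members were higher and 12 lower, and over all genes 3432 were higher and 3297 lower. Members with few reads, such as Tfec, Ids and Smpd1, have the widest intervals, and for them a change of the size seen in Lamp1 was not detectable at this depth.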
